A study of Arabidopsis thaliana with 12 samples.

Results

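Cytochrome P450 genes, recognised by a gene symbol that starts with CYP followed by digits and a family letter, were described in flowers of 10 Arabidopsis thaliana accessions. The rule found 23 genes, each with 1 probe set, among the 13286 loci that could be named on the array. RefSeq lists 252 P450 loci by symbol or synonym, so the 23 cover 9.13% of the family, and the other loci were not analysed here. Of the 23 genes, 19 belong to the CYP71B subfamily, which has 36 loci in RefSeq, and the other 4 are CYP51G2, CYP78A9, CYP79A2 and CYP84A4. RefSeq annotates CYP71B27 and CYP51G2 as transcribed pseudogenes. The values therefore speak of CYP71B with a few single representatives of other families, and not of the P450 family as a whole.

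Total RNA of flowers from natural accessions, raised on agar and then on soil in long days, was hybridized to 12 ATH1 arrays. The saiginol producers, whose flowers make phenylacylated flavonols, were C24, Cvi, Da, Rsch and RLD, and the non-producers were Col-0, Ler, Ws, Sap and Stw. Col-0 and C24 had 2 arrays each, titled ExpI and ExpII and described as duplicate hybridizations in the methods, and the 8 other accessions had 1. Titles and ecotype labels conflict for 2 arrays, since RLD is the ecotype given for Sap by title and Sap-0 the one given for Stw, and titles were followed. The labels give no treatment, mutation or transgene for any of these samples. A flower holds many cell types, and in such bulk RNA fewer cells of a type and less RNA per cell cannot be told apart. The methods give ATH1, a single array design for all 10 accessions, and whether sequence differences under its probes moved a signal was not tested.

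Cytochrome P450 enzymes are heme proteins, mostly held at the endoplasmic reticulum, that insert oxygen into small molecules with electrons from a reductase. In plants the family acts in the making of hormones, sterols, pigments, wall polymers and defence compounds, and flowers use members of it on scent terpenoids and in organ growth. CYP71B is a large subfamily with many genes in tandem arrays, and most of its members have no settled substrate. In these data 11 of the 19 CYP71B genes lay between CYP71B16 and CYP71B37 in 83.0 kb of chromosome 3 (TAIR10.1, 9565627 to 9648658), a stretch of 25 loci of which 18 are P450 loci. CYP71B5, CYP71B30P and CYP71B31 lay within 6.67 kb further along the same chromosome, and CYP71B27, CYP71B28 and CYP71B29 within 10.3 kb of chromosome 1.

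Values are signals in array units on a linear scale, which the authors scaled to a common mean of 100.0 per array once 2% of the values at either end are trimmed. The 12 medians ran from 46 to 51.1. As a reference for dim signals, the highest of the 27 Bacillus subtilis control probe sets on any array was 16.6, which is not a detection threshold. Of the 23 P450 genes, 6 lay above this level on every array (55.2% of the 13436 probe sets tested), 8 on some arrays and 9 on none (21.2% of those tested). The second C24 array stood apart from the first more than the Col-0 arrays did from each other, with an SD of the log2 differences over all probe sets of 0.817 against 0.689. Markers of floral tissue were present, since A9, a tapetum gene, ranged from 247.6 to 899.2 over the 12 arrays and the summed signal of 4 measured pollen genes from 64.3 in Cvi to 218.5 on the second C24 array. None of the 5 organ identity genes listed as flower markers had a named probe set.

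**Figure D1:**
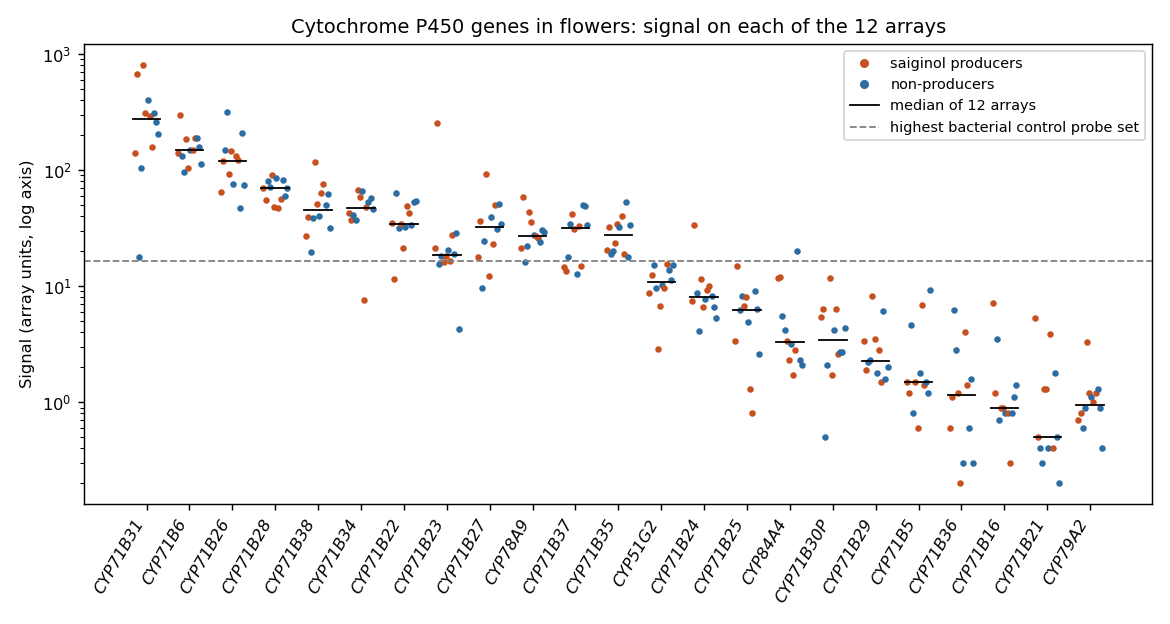
Signal of each of the 23 P450 genes (horizontal axis, ordered by mean signal) on each of the 12 arrays, in array units on a log axis. Orange points are arrays of producers, blue points arrays of non-producers, black lines the median of 12 arrays, and the dashed line the highest bacterial control at 16.6. Points of both colours overlap for all 23 genes.

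CYP71B31, which oxidizes the floral scent alcohol linalool, had the widest spread between accessions among the 23 genes on the log2 scale. Its signal was 17.8 and 103.3 on the Col-0 arrays, 404.0 in Ler, 313.2 in Sap, 258.7 in Stw and 203.5 in Ws. In the producers it was 141.5 and 666.0 on the C24 arrays, 805.5 in Cvi, 307.4 in Da, 295.0 in RLD and 159.0 in Rsch. Both Col-0 arrays were the lowest of the 12, Cvi and the second C24 array were the highest, and producers and non-producers overlapped. The mean of the 2 Col-0 values of log2(signal + 1) lay 2.80 below the median of the other 9 accessions, a 6.96-fold difference. With the second Col-0 array alone the difference was -1.56, and with the first alone -4.04. The SD of the log2 accession values was 1.08, larger than that of 98.7% of the probe sets of like mean signal, but the duplicate arrays were also far apart, by 5.80-fold in Col-0 and 4.71-fold in C24.

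Being 4-fold off the median of the other 9 accessions was rare in the table as a whole. An accession lay at least 4-fold below in 0.834% of the probe sets tested and at least 4-fold above in 0.707%, with the higher side at 50 or more. Of the 23 P450 genes, 2 had an accession that low, CYP71B31 in Col-0 and CYP71B34 in RLD, and 0 had one that high. These counts are descriptions without a test.

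CYP71B34 was low in RLD and even elsewhere. Its signal was 7.6 in RLD, 41.3 and 37.4 on the Col-0 arrays, 42.7 and 37.0 on the C24 arrays, 67.2 in Cvi, 58.6 in Da, 48.2 in Rsch, 65.8 in Ler, 53.0 in Sap, 57.6 in Stw and 46.1 in Ws. RLD was the single array below 37.0, at a level under the highest bacterial control. It lay 2.65 below the median of the others on the log2 scale (6.28-fold). CYP71B35 starts 13 bases past the end of CYP71B34 on TAIR10.1 and did not share the low value, with 40.2 in RLD, the second highest of its 10 accession values, which ran from 17.9 in Stw to 52.7 in Sap. RLD has 1 array by title, so the low value has no replicate. The array titled Sap, whose ecotype label is RLD, had 53.0 and did not share the low value. With a pseudocount of 16 in place of 1 the difference was -1.55.

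**Figure D2:**
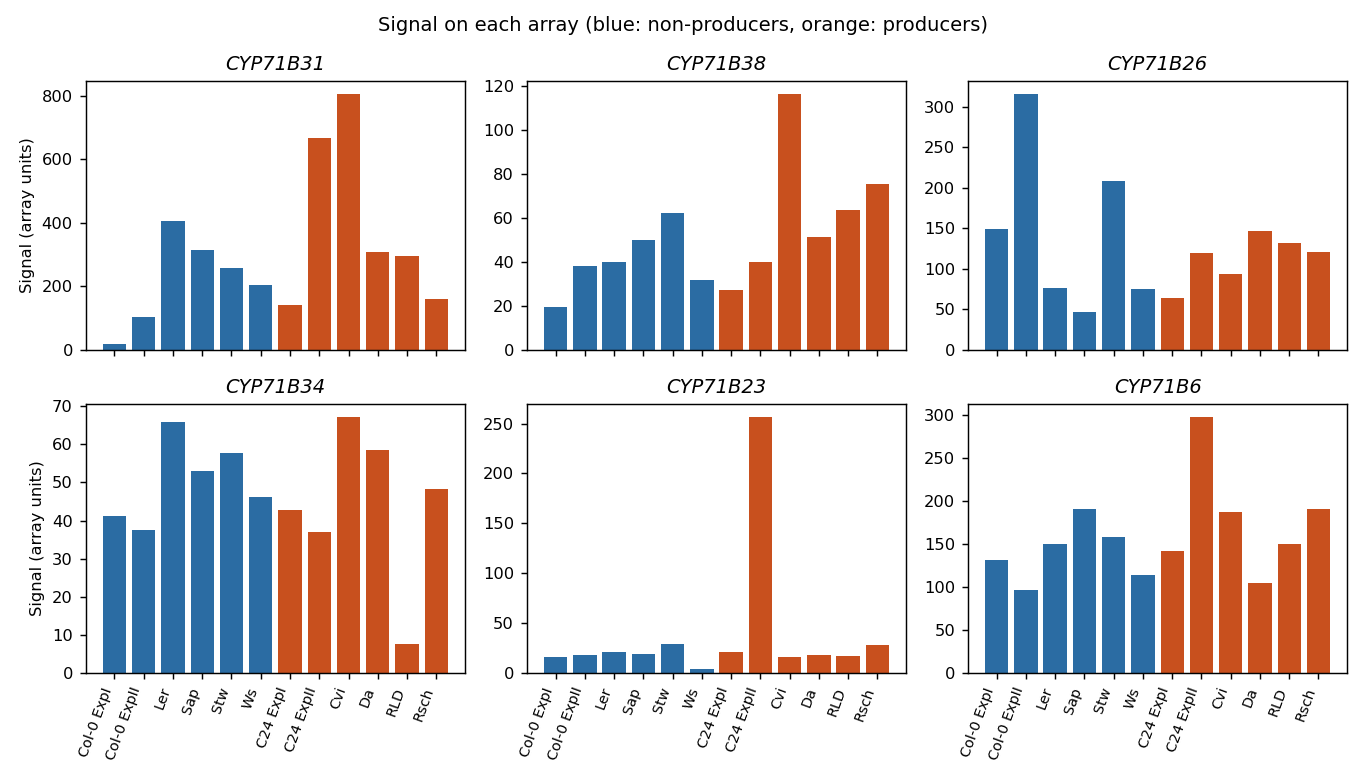
Signal in array units (vertical axes, from 0, each with its own scale) of 6 P450 genes on each of the 12 arrays, with non-producers in blue and producers in orange. CYP71B31 was lowest on the Col-0 arrays, CYP71B34 fell to 7.6 in RLD, and CYP71B23 reached 256.6 on the second C24 array against 21.2 on the first.

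Other genes of the chromosome 3 array each had their own order of accessions. CYP71B26 had signals of 149.4 and 316.3 in Col-0 and 208.4 in Stw, against 46.8 in Sap, 74.5 in Ws and 76.1 in Ler. Among producers it ran from 64.5 on the first C24 array to 147.0 in Da, so the highest and the lowest values were both in non-producers. CYP71B37 was highest in Sap (50.2), Stw (49.0) and Cvi (41.5) and lowest in Ler (12.8), C24 (14.6 and 13.4) and Rsch (14.8). CYP71B22 ranged from 11.5 on the second C24 array to 63.2 on the first Col-0 array, with C24 and Da lowest among the accession values, at 23.3 and 21.3, and the other 8 between 32.6 and 54.5.

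CYP71B23 was low in 9 accessions and high on 1 array. Its signal was 256.6 on the second C24 array and 21.2 on the first, between 15.4 and 28.6 on 9 of the other arrays, and 4.3 in Ws. CYP71B24, separated from CYP71B23 by 1 other P450 locus, had 33.7 on the second C24 array and 4.1 to 11.5 on the rest, while CYP71B22, on the other side of CYP71B23, had its lowest signal there. The correlation of log2 signals over the 12 arrays was 0.83 for CYP71B23 with CYP71B24 and -0.74 for CYP71B22 with CYP71B23. Without the second C24 array these values were 0.32 and -0.27, so both rest on that array. On the same array the 4 pollen genes summed to 218.5, against 100.8 on the first C24 array, though ACT12 among them did not rise (29.9 against 30.5). Their part in these signals was not tested.

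Off the main cluster, CYP71B38, CYP71B27 and CYP71B28 each had their highest accession value in Cvi. CYP71B38, a lone CYP71B gene of chromosome 3, had 116.4 in Cvi, 75.2 in Rsch, 63.4 in RLD and 62.2 in Stw, against 19.5 and 38.3 in Col-0, 27.0 and 39.8 in C24 and 31.6 in Ws. CYP71B27, the annotated pseudogene of chromosome 1, had 92.0 in Cvi and was lowest in Da at 12.2 and on the first Col-0 array at 9.7. CYP71B28, nearby, ran from 47.1 in RLD to 89.9 in Cvi. CYP71B29 lies 389 bases from CYP71B28 and stayed below the highest bacterial control on every array, with at most 8.3.

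On the log2 scale Cvi had the highest accession value for 9 of the 23 P450 genes, among them CYP71B31, CYP71B38, CYP71B27, CYP71B28, CYP71B34 and CYP78A9. Over all probe sets tested Cvi was the highest accession in 12.4%. C24 was highest for 4 (8.34% of those tested) and Da for 0 (9.13%), while Da was lowest for 4 (10.9%). Cvi and Da each have 1 array, and 3 of the 9 genes highest in Cvi, CYP71B29, CYP71B30P and CYP79A2, stayed below the highest bacterial control there.

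**Figure D3:**
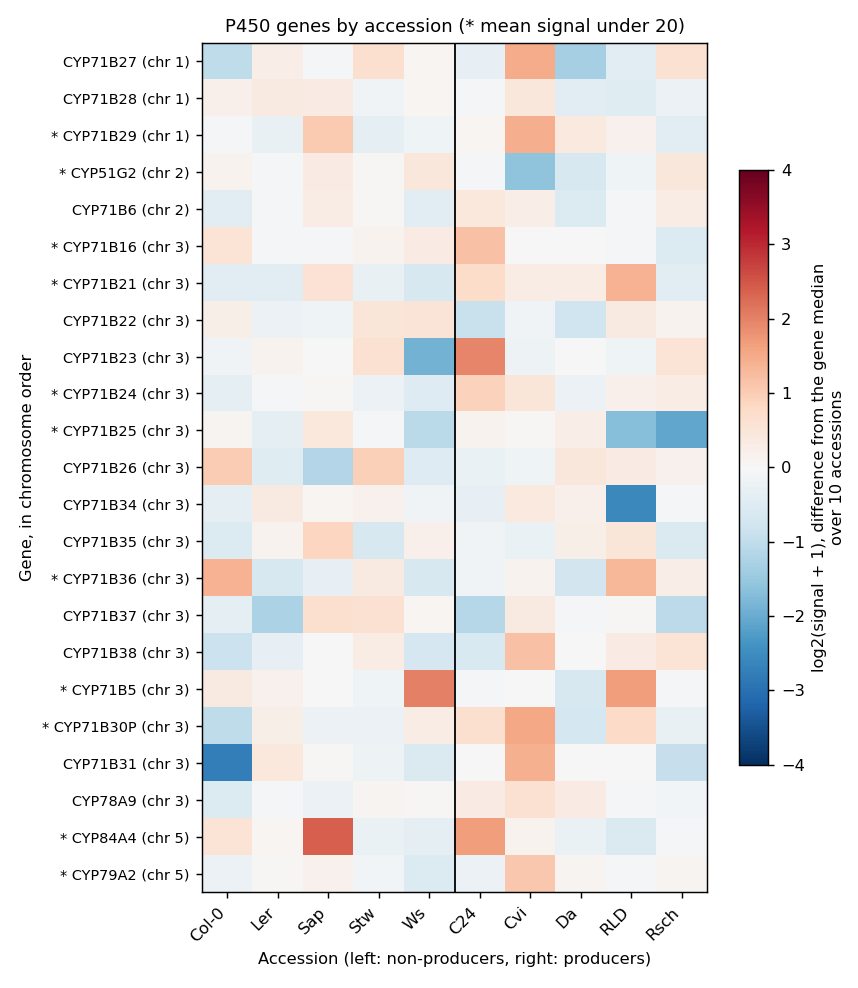
Difference of log2(signal + 1) from the gene's median over 10 accessions (colour, from -4 to 4), for the 23 P450 genes in chromosome order (vertical) and the 10 accessions (horizontal, non-producers left of the line, producers right). The deepest blue cells are CYP71B31 in Col-0 and CYP71B34 in RLD, and a star marks the 11 genes with a mean signal under 20, where small differences in signal give large ones in log2.

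Genes with a known role outside the CYP71B tandem arrays were few. CYP71B6, which turns over indole-3-acetonitrile in indole defence metabolism, was the single P450 gene with every accession at 100 or more. Its signals were 131.5 and 96.1 in Col-0, 141.5 and 297.6 in C24, 186.9 in Cvi, 104.7 in Da, 150.2 in RLD, 190.0 in Rsch, 149.5 in Ler, 190.0 in Sap, 158.3 in Stw and 113.7 in Ws. All 10 accession values lay within 2-fold of their median, and the second C24 array was the highest. The SD of its log2 accession values, 0.35, was still larger than that of 79.3% of the probe sets of like mean signal.

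CYP78A9, which promotes growth of carpels, ovule integuments and seeds, ranged from 16.2 on the first Col-0 array to 58.4 on the second C24 array. Its accession values ran from 19.15 in Col-0 to 43.7 in Cvi, and its SD of 0.32 was close to the median of probe sets of like signal. CYP84A4, an enzyme of arabidopyrone synthesis, was dim, with 20.1 in Sap, 11.7 and 12.0 on the C24 arrays and at most 5.5 on the others. Only Sap passed the highest bacterial control. CYP79A2, which makes phenylacetaldoxime for benzylglucosinolate, did not pass 3.3 on any array.

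The remaining dim genes gave little to describe. CYP51G2, CYP71B5, CYP71B16, CYP71B21, CYP71B25, CYP71B29, CYP71B30P and CYP71B36 stayed at or below 16.6 on every array, as did CYP79A2. CYP71B30P, 871 bases before CYP71B31, did not pass 11.7, but its log2 signals followed those of CYP71B31 with a correlation of 0.78 over the 12 arrays, and CYP71B5, next to it, did not (-0.28). CYP78A9 had the closest pattern to CYP71B31 among the other 22 genes (0.84), followed by CYP71B30P and by CYP71B38 (0.68) and CYP71B27 (0.67). These correlations are descriptions over arrays that include 2 duplicate pairs.

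Of the genes listed as partners in the same pathways, 3 were measured. TPS24, a monoterpene synthase, had 220.0 on the first and 602.0 on the second C24 array, 397.5 in Da and 276.7 in Cvi. It had 191.9 in Ws, 165.3 in Ler, 84.1 in Sap and 75.2 in RLD, against 17.2 in Stw and 21.1 in Rsch. In Rsch CYP71B31 was also low, at 159.0, its lowest accession value after Col-0, but in Stw it was at 258.7. On the first Col-0 array TPS24 was at 106.1 where CYP71B31 was at 17.8, and on the second at 149.1 where CYP71B31 was at 103.3. Both genes were thus higher on the second array in Col-0, and also in C24. TPS11, a sesquiterpene synthase of flowers, stayed between 401.5 and 739.5, and UGT74B1, a glucosyltransferase of glucosinolate synthesis, between 53.8 and 151.5.

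The spread of each gene was set beside that of probe sets of like mean signal, since dim probe sets vary more on the log2 scale. The SD of the log2 accession values had a median of 0.66 over the 23 P450 genes and 0.35 over all probe sets tested. With all probe sets sorted into 10 classes of mean signal, 17 of the 23 genes lay above the median SD of their class. Of the 12 genes with a mean signal of 20 or more, 11 lay above it and 10 were above the 75th percentile, and their median SD was 0.66 against 0.28 over the 8533 probe sets at that level. CYP71B23 reached that level through the second C24 array alone, and without this gene the counts were 10 and 9 of 11, with a median SD of 0.63. Of the 11 dimmer genes 6 lay above the median of their class. CYP78A9 was the bright gene below the median, and CYP71B28 was at the 68.4th percentile.

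Leaving out any of the 12 arrays kept at least 10 of the brighter genes above the median of their class. The count above the 75th percentile fell to 7 of 11 without the second C24 array. The same genes also differed more between duplicate arrays than other probe sets did. The median absolute log2 difference between the C24 arrays was 0.93 over the 12 genes and 0.34 over all probe sets with a mean of 20 or more, and between the Col-0 arrays 0.67 and 0.25. Without CYP71B23 the P450 values were 0.87 for C24 and 0.89 for Col-0. How much of the spread between accessions is spread between arrays of 1 accession was not tested for the 8 accessions with 1 array.

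**Figure D4:**
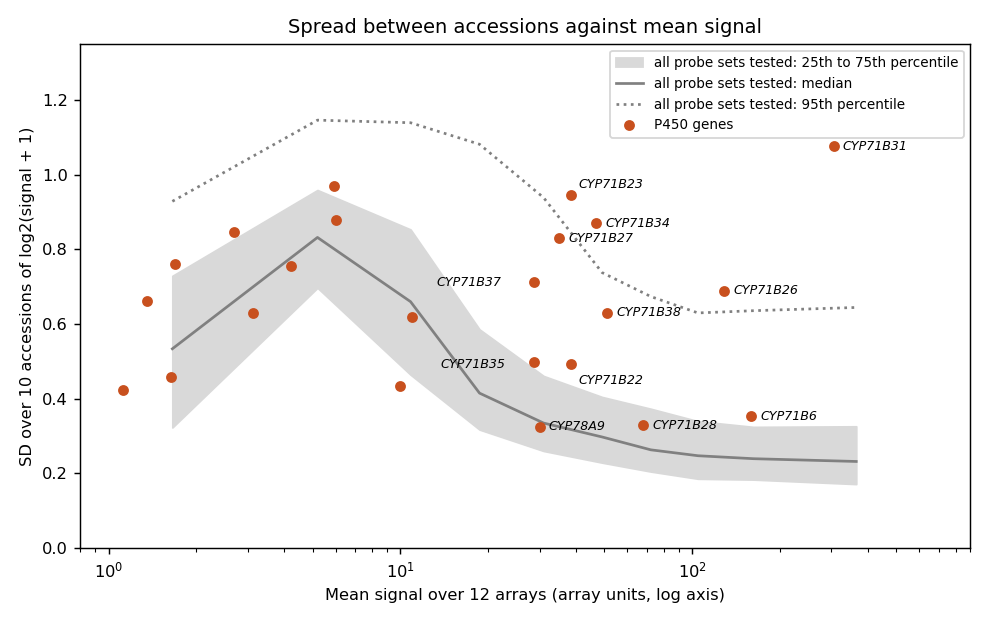
SD over 10 accessions of log2(signal + 1) (vertical) against the mean signal over 12 arrays (horizontal, log axis) for the 23 P450 genes (orange). The grey line, band and dotted line give the median, the 25th to 75th percentile and the 95th percentile over all probe sets tested, by class of mean signal. Above a mean of 20, all genes but CYP78A9 sit above the grey line, CYP71B31 highest with an SD of 1.08.

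With accession as a factor over the 12 arrays, 0 of the 23 P450 genes passed an adjusted p of 0.05 in limma's moderated F test, as in the whole table (0%). At an unadjusted p under 0.05, 2 of the 23 passed, CYP71B34 and CYP84A4 (both adjusted p = 0.387), against 9.62% of all probe sets. The residual spread in this fit comes from the duplicates of C24 and Col-0 alone.

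Producers and non-producers, the contrast the study was built on, were compared over accession values, 5 against 5. In limma 0 of the 23 genes passed an adjusted p of 0.05 (0% of all), and 1 had an unadjusted p under 0.05 (6.32% of all). This was CYP71B24, with a log2 difference of 0.55 (limma adjusted p = 0.780). It was dim, and only the second C24 array, at 33.7, passed the highest bacterial control. With a pseudocount of 16 its difference was 0.24. No P450 gene had producers wholly above or wholly below non-producers (0.476% and 0.744% of all probe sets). The difference was positive for 13 of the 23, against 46.1% of all probe sets, and its median was 0.13 against -0.02. The share over all probe sets depends on the scaling, with 51.1% after quantile normalization (14 of the 23 P450 genes) and 55.6% after median centring (13 of the 23).

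The 5 producers averaged 394 ± 246 (SD) for CYP71B31 and the 5 non-producers 248 ± 128 (SD), which left them 0.72 apart on the log2 scale with a standard error of 0.60 (limma, adjusted p = 0.862). CYP71B38 had 67.9 ± 31.2 and 42.6 ± 13.7 (SD, n = 5 each), with C24 below Ler, Sap and Stw (log2 difference 0.61, standard error 0.33, limma adjusted p = 0.789). Single accessions set much of both values. The CYP71B31 difference was 0.18 without Col-0 and 0.39 without Cvi, and that of CYP71B38 was 0.39 without Cvi.

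C24 and Col-0, the parents of the introgression lines of the study, were compared with 2 arrays each. In limma 0 of the 23 genes passed an adjusted p of 0.05 (0% of all), and 3 had an unadjusted p under 0.05 (7.9% of all). All 3 were dim. CYP84A4 had 11.7 and 12.0 in C24 against 5.5 and 4.2 in Col-0, higher by 1.14 on the log2 scale (standard error 0.27, adjusted p = 0.392). With a pseudocount of 16 this difference was 0.42. CYP71B30P and CYP71B36 stayed under the highest bacterial control on all 4 arrays, and no fold is given for them (limma adjusted p = 0.434 and 0.465).

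Both C24 arrays lay above both Col-0 arrays for 7 genes, CYP71B31, CYP71B6, CYP71B23, CYP71B35, CYP71B21, CYP71B30P and CYP84A4, where 17.7% of all probe sets did so. Both lay below for 4, CYP71B26, CYP71B28, CYP71B36 and CYP71B37, where 18.2% did. CYP71B31 had the largest difference of the 11, 2.80 with a standard error of 1.13 (adjusted p = 0.678), and its lower C24 array, at 141.5, was near its higher Col-0 array, at 103.3. CYP71B26 was lower in C24 by 1.30 (standard error 0.52, adjusted p = 0.672), with 64.5 and 119.0 against 149.4 and 316.3. None of the 11 passed the adjusted threshold.

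The duplicates themselves differed in a way that bears on these values. The second C24 array was at least 2-fold above the first, with the higher at 50 or more, for 4 P450 genes, CYP71B23, CYP71B31, CYP71B6 and CYP78A9 (2.82% of all probe sets), and at least 2-fold below for 0 (1.47%). The second Col-0 array was 2-fold above the first for 2, CYP71B26 and CYP71B31 (0.484%), and below for 0 (0.186%). CYP71B31 was thus higher on the second array in both accessions. The 4 pollen genes summed to 218.5 against 100.8 in C24 but 133.2 against 170.8 in Col-0. BUPS1, ANX1 and ANX2 each followed these sums. ACT12 did not, with 29.9 against 30.5 in C24 and 47.3 against 43.9 in Col-0. The 2 measured ovule and seed coat genes, BAN and INO, summed to less on the second array in both accessions, 28.8 against 73.0 in C24 and 42.7 against 86.8 in Col-0. The 2 tapetum genes, A9 and AMS, summed to 670.9 against 965.6 in C24 and 831.0 against 687.9 in Col-0. These sums followed A9, with 480.9 against 787.8 in C24 and 665.5 against 517.7 in Col-0. AMS changed little and in the other direction, with 190.0 against 177.8 in C24 and 165.5 against 170.2 in Col-0. The part of these tissues in the P450 signals was not tested.

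**Figure D5:**
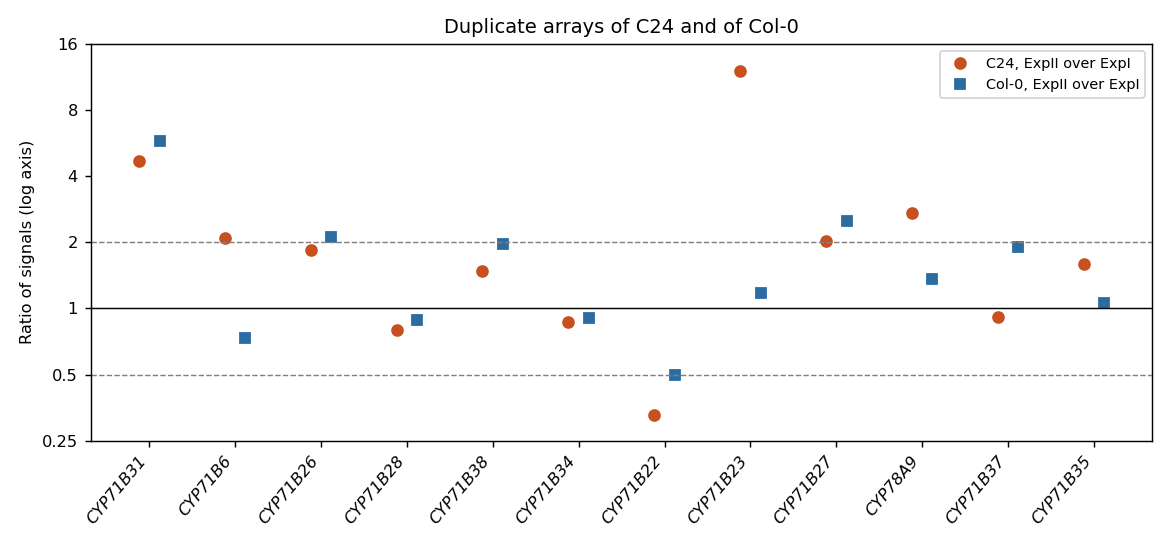
Ratio of the signal on the second array to that on the first (vertical, log axis) for C24 (orange circles) and Col-0 (blue squares), for the 12 P450 genes with a mean signal of 20 or more. The solid line marks equal signals and the dashed lines a 2-fold change. CYP71B31 was up 4.71-fold in C24 and 5.80-fold in Col-0, and CYP71B23 was up 12.1-fold in C24 and 1.18-fold in Col-0.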

How the data were processed

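Microarray signal intensities, linear and not logged, were deposited for every probe set of each array, and the authors had scaled them to a common trimmed mean. The summarization software is not given in the sources used here. Of 22810 probe sets, 13436 were named for 1 RefSeq locus by the platform table and were fitted. Of the P450 probe sets, 2 with several genes were left out. All 12 columns were used.

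Signals were taken as log2(signal + 1) and fitted with limma 3.58.1 in R 4.3.3 (lmFit, eBayes), with Benjamini-Hochberg adjustment over all 13436 probe sets and a threshold of 0.05. The 2 arrays of C24 and of Col-0 were averaged for accession values. If these arrays hold 1 RNA, p-values of the F test and of C24 against Col-0 measure only spread between hybridizations. Those of producers against non-producers measure spread between accession values. Alternatives were a pseudocount of 16, quantile normalization, median centring, leaving out the lowest 25% of signals, a variance trend with robust prior, the experiment number as a block, all 12 arrays for C24 against Col-0, and omission of Sap and Stw or of single arrays. The fits were tested on simulated data, and figures were drawn with matplotlib 3.10.9.

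The members and lists were chosen with earlier results of these data known. Named genes were the P450 genes with an accession at 50 or more, by SD of the accession values, by the C24 and Col-0 difference and by stable signal, members of role lists, neighbours in the subfamily, and measured genes of partner and marker lists. The dim genes, the omission of CYP71B23 from the spread, the split at a mean signal of 20 and the omission of single arrays from the 4-fold counts and from the spread were added after the values were seen. Of the role lists, those for triterpenes, abscisic acid, brassinosteroid, carotenoid, cutin, cytokinin, gibberellin, jasmonate, sporopollenin and sterol had 0 measured members. Names and positions come from RefSeq (TAIR10.1), and the files name no genome build.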

Additional observations from a re-analysis of the deposited data

Results flagged for a closer look

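CYP71B23 in C24 had an accession value of 138.9, while the other 4 producers lay between 16 and 27.8. The gap to the nearest of the others was 0.904 of the whole range of the 5 producers. It rests on the second C24 array (256.6), since the first was at 21.2. The 22 groups of 5 accessions examined came from genes with an accession at 50 or more, a level that CYP71B23 reached through this same value. It was the single value flagged among them, by a gap above 0.71 of the range on linear signals. At this cut chance flags about 1 in 20 groups where the gene was not so chosen. A count of 1 in 22 groups is near that rate. The rule was not run on the log2 scale.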

How the results depend on the processing

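In the 3 limma comparisons the number of P450 genes past an adjusted p of 0.05 was 0 under all 19 alternatives for accessions, 16 for producers and 11 for C24 against Col-0. At an unadjusted p under 0.05 it ranged from 1 to 6, 0 to 4 and 1 to 6, and the lowest adjusted p of a P450 gene was 0.193, 0.565 and 0.303. In the main fits 0 probe sets of the whole table passed, so the count of 0 there is not particular to P450 genes. Under some alternatives up to 30, 2 and 32 probe sets passed, and under most others 0 did. Only 13 P450 genes remained with the lowest 25% of signals left out. For the gene values picked for this check, all 170 alternative log2 differences kept their direction. These and the 151 values of the F test, which has no direction, kept their side of the threshold. Most of the C24 and Col-0 values were of genes without overlap, where leaving out 1 array cannot turn the sign. For some other P450 genes the sign did turn between settings. CYP71B25 ranged from -0.89 to 0.96 in C24 against Col-0, and CYP71B27 from -0.37 to 0.34 in producers against non-producers. The count of genes 4-fold off the other accessions was 2. It was 1 with a pseudocount of 16, where CYP71B31 stayed, and ranged from 1 to 3 when single arrays of C24 or Col-0 were left out. Without the first Col-0 array CYP71B31 was lost, and without the first C24 array CYP71B23 in C24 was added (3.75 above). Without Sap and Stw it was 2, with CYP71B23 (2.09 above) in place of CYP71B34, which was still low (log2 difference -2.52) but missed the level of 50, as the median of the others was 48.2. The cause of these shifts was otherwise not tested. The differences between duplicates of C24 and of Col-0 had a correlation of 0.05 over 13436 probe sets and 0.42 over the 23 P450 genes. Whether the experiment numbers pair the C24 and Col-0 arrays is not settled by these values. With the replicate block 0 P450 genes passed, for accessions and for C24 against Col-0 alike, but those of C24 against Col-0 with an unadjusted p under 0.05 went from 3 to 6, and the standard error of CYP71B31 from 1.13 to 0.29 (limma adjusted p = 0.304). The number of arrays limits the precision, and 8 accessions have 1.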
